A study of Homo sapiens with 22 samples.

Results

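The loci of 10 genes that encode cohesin or its regulators were examined for peaks of chromatin immunoprecipitation sequencing (ChIP-seq), an assay that sequences the DNA bound by a precipitated protein. A locus was the RefSeq gene body of GRCh38.p14 plus 50 kb on both sides, and a peak belonged to it when its summit lay inside. The members were NIPBL, MAU2, RAD21, SMC1A, SMC3, STAG1, STAG2, WAPL, PDS5A and PDS5B, which are 10 of 19974 protein-coding genes in the table. Their windows did not touch each other and spanned 2.33 Mb. They held 35 of 39713 RAD21 peaks of the solvent control of clone A2 and 30 of 37566 of the solvent control of clone D7.

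The cells were hTERT RPE-1, a human line from retinal pigment epithelium that telomerase keeps dividing, and they were cycling and not synchronised. Wild-type cells gave the libraries of CTCF and WAPL. All other libraries came from 2 clones whose NIPBL carries a degron: clone NIPBL-A2 has the genotype mCherry-P2A-FKBP12(F36V)-NIPBL and clone NIPBL-D7 has mGreenLantern-P2A-FKBP12(F36V)-NIPBL. The F36V variant of FKBP12 is the domain that the small molecule dTAGV-1 directs to degradation, so the controls carried the tag too. Each clone gave 3 RAD21 libraries, from cells kept 24 h in the solvent DMSO or given dTAGV-1 for 4 h or 24 h, with about 10% of mouse NIH/3T3 cells as a spike-in. PDS5A was precipitated from clone D7 after 24 h of DMSO with the same spike-in. STAG1 and STAG2 were precipitated from clone D7 and an HA epitope from clone A2. The labels give these 3 samples no treatment. The peak names of the first pair read DMSO, and those of the HA list read HA-NIPBL. Each genotype was represented by 1 clone and each group by 1 library, so no difference within a clone had a replicate check, and no p-value was computed. The clones, which differ in their tag, are given side by side. Intervals are 95% intervals for counting error only, by the Wilson method for shares.

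Cohesin is a ring of SMC1A, SMC3 and the kleisin RAD21 that holds sister chromatids together and extrudes chromatin loops. STAG1 and STAG2 are alternative subunits that bind RAD21. NIPBL with its partner MAU2 loads the ring and drives extrusion, PDS5A and PDS5B bind the ring and regulate its stay on DNA, and WAPL releases it. CTCF is a zinc-finger protein that binds DNA and stops extruding cohesin, so cohesin peaks commonly lie at CTCF sites. The question put to the data was whether cohesin occupied the genes that encode it, and what stayed there after NIPBL was degraded.

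The start sites of STAG1, STAG2 and PDS5B carried RAD21 in all 6 RAD21 lists, whereas that of MAU2 carried CTCF and PDS5A but no RAD21. These 4 promoters are shown because the summits at their start sites fall inside the printed stretch, from 250 bases before the start site to 30 bases after it. They are RefSeq sequences of GRCh38.p14, written 5′ to 3′ along the gene: STAG1 at chr3:136752349-136752628 on the minus strand, STAG2 at chrX:123960310-123960589 on the plus strand, PDS5B at chr13:32586202-32586481 on the plus strand and MAU2 at chr19:19320579-19320858 on the plus strand. Capitals mark the letters AGNNGGCG on either strand, a short part of the core that CTCF binds.
STAG1: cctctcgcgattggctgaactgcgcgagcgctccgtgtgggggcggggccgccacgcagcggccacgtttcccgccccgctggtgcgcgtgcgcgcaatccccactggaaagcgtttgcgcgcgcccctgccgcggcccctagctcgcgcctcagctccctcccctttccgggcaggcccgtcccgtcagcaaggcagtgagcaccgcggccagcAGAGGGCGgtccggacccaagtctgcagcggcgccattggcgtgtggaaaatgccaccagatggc
STAG2: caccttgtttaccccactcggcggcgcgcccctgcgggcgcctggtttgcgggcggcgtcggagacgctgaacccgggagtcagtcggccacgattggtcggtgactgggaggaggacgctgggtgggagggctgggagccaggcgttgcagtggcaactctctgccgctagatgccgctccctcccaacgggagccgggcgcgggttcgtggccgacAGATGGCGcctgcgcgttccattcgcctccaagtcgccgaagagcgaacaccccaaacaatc
PDS5B: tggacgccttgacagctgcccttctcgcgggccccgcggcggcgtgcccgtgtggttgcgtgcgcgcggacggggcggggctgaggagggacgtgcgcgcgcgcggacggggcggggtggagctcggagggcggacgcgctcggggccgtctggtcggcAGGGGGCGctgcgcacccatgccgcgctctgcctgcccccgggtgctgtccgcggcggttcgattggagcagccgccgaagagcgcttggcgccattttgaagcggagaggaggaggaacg
MAU2: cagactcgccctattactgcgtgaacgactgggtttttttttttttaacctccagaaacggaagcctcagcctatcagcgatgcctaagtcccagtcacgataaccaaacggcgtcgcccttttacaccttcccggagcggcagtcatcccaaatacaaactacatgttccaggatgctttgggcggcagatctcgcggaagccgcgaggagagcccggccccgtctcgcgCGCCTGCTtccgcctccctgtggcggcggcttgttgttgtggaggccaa

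In STAG1 the match lay from -35 to -28 before the start site, 6 bp from the CTCF summit and 17 bp from the RAD21 summit of clone D7 in DMSO. In STAG2 it lay from -32 to -25, 50 bp from the CTCF summit and 29 bp from that RAD21 summit. In PDS5B it lay from -91 to -84, 17 bp and 16 bp from the same summits. In MAU2 the match was on the other strand from -19 to -12, 8 bp from the CTCF summit and 35 bp from the PDS5A summit. The short letters are common: 36.2% of 22132 promoters of protein-coding genes held them in the same stretch. So did a promoter of 7 of the 9 members with a promoter sequence, SMC1A, WAPL and PDS5A included. The share counts promoters and the 7 counts genes, of which STAG2 has 3 promoters and SMC1A 2. The short letters were chosen after these promoters had been read. A longer CTCF core, CCA, any 2 letters, AG, any 2 letters and GGC, was searched on both strands and occurred in 2.39% of promoters. It occurred in STAG1 alone among those 9 members, as CCAGCAGAGGGC from -40 to -29 and as CCACCAGATGGC from 19 to 30 after the start site. The short match from -35 to -28 overlaps the first of these. RAD21 has no entry in the promoter table.

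Every one of the 10 loci held a RAD21 peak in DMSO in both clones. Of all protein-coding genes, 90.0% had one in the same kind of window in clone A2 and 88.9% in clone D7. After dTAGV-1, 9 of the 10 loci held one in each list, against 81.1% of genes at 4 h and 81.9% at 24 h for clone A2, and 89.9% and 84.5% for clone D7. The same 9 loci held one in all 6 lists, as did 76.4% of genes. CTCF, STAG1 and PDS5A had a peak at all 10 loci, against 94.4%, 84.5% and 86.4% of genes, and STAG2 at 9, against 75.8%. WAPL had one at 1 locus, against 22.3%, and HA at 1, against 0.966%. Peak numbers ran from 1 at WAPL and PDS5A to 5 at SMC3 and STAG1 in clone A2. In clone D7 they ran from 1 at NIPBL, STAG2, WAPL and PDS5A to 5 at MAU2, SMC3 and PDS5B. The median was 4 peaks per member in clone A2 and 3.5 in clone D7, against 3 over all protein-coding genes in both. Per length, the 10 loci had 1.50 peaks per 100 kb in clone A2 and 1.28 in clone D7, against 1.74 and 1.67 over the windows of all protein-coding genes.

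**Figure D1:**
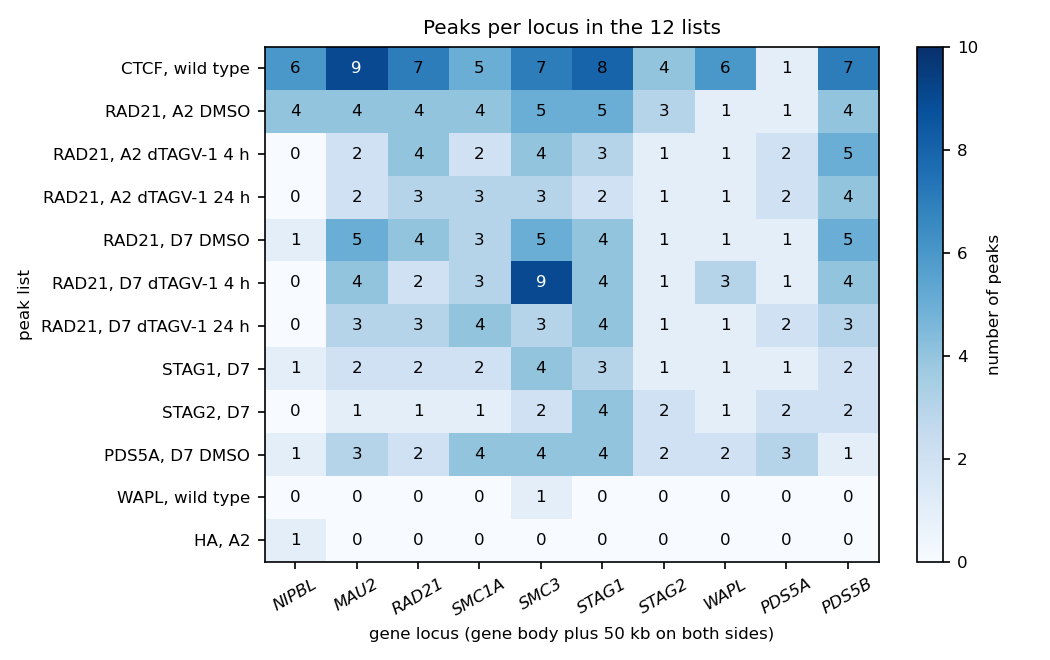
Number of peaks (colour and printed value) at each of the 10 gene loci (columns) in each of the 12 peak lists (rows). NIPBL has no RAD21 peak in the 4 lists after dTAGV-1, while each other locus has at least 1 in all 6 RAD21 lists.

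Over the 12 lists the peaks merged into 71 sites, of which 60 held a CTCF peak and 47 a RAD21 peak in at least 1 list. In DMSO, 34 of 35 RAD21 peaks overlapped CTCF in clone A2, or 97.1% (85.5 to 99.5), and 29 of 30 in clone D7, or 96.7% (83.3 to 99.4). The whole lists had 85.9% and 83.1%. The DMSO peak that did not was the same in both clones, at the start of SMC3. CTCF itself had 60 peaks at the loci, or 2.57 per 100 kb, against 2.59 over all gene windows. Of these CTCF peaks, 34 held RAD21 in clone A2 in DMSO, or 56.7% (44.1 to 68.4), and 29 in clone D7, or 48.3% (36.2 to 60.7). The whole CTCF list had 57.4% and 52.8%.

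The libraries of the other proteins were read at the same loci. STAG1 had 19 peaks, and 18 of them overlapped RAD21 peaks of clone D7 in DMSO. STAG2 had 16, of which 14 did. These shares, 94.7% and 87.5%, stand beside 93.6% and 84.0% of the whole lists. The pair shared 12 sites, with 7 sites of STAG1 alone and 3 of STAG2 alone. No whole-list split stands beside these counts, so they only describe the loci. PDS5A had 26 peaks, 18 of them overlapping that RAD21 list, or 69.2% (50.0 to 83.5), against 72.7% of the whole PDS5A list. WAPL, whose whole list held 2667 peaks, had 1 peak at the loci. It lay 42.8 kb downstream of the SMC3 start site, at the site that also had the highest RAD21 fold enrichment in clone A2.

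RAD21 peaks were counted inside the genes and beside them. In clone A2 in DMSO, 14 peaks lay in the gene bodies and 21 in the flanks, or 1.05 and 2.10 per 100 kb. In clone D7 there were 9 and 21, or 0.674 and 2.10. Over all protein-coding genes clone A2 had 1.57 and 2.10, and clone D7 had 1.48 and 2.06. SMC1A and WAPL had no RAD21 peak inside the gene in either DMSO list, and NIPBL and STAG2 had none in that of clone D7. No share over all genes stands beside these counts, so they only describe the loci. The flanks also hold other genes: 8 of the 10 windows reached at least 1 other protein-coding gene, among them CPLANE1 beside NIPBL, PCCB beside STAG1 and XIAP beside STAG2. The windows of RAD21 and WAPL reached none.

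Windows end at a fixed distance. In clone A2 in DMSO the peak nearest to a limit on the inside, with a fold enrichment of 10.6, lay 1653 bp within the MAU2 window. The nearest on the outside, with 11.8, lay 2620 bp beyond the RAD21 window. A peak with a fold enrichment of 115 lay 7864 bp outside the WAPL window and was not counted.

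Among the 9 members with a RefSeq start site, 5 had a RAD21 summit within 1 kb of one in DMSO in clone A2 and 5 in clone D7. The shares over 15812 protein-coding genes with a start site were 29.5% and 32.9%. The same 5 genes were involved, NIPBL, SMC3, STAG1, STAG2 and PDS5B. After dTAGV-1, clone A2 had 4 of 9 at both times, against 8.29% of genes at 4 h and 13.8% at 24 h. Clone D7 had 5 and then 4, against 36.3% and 19.1%. The start sites of STAG1, STAG2 and PDS5B had a RAD21 summit within 1 kb in all 6 lists, 3 of 9 members, and 7.17% of genes did. Without the 4 h library of clone D7 the number was 3 and the share 7.20%. These counts rest on summits: at PDS5A a RAD21 peak covered the start site in every list. Its summit lay past 1 kb in both DMSO lists and at 4 h in clone D7. Counted at either gene end, the 10 members gave the same RAD21 numbers as the start sites, 5, 4 and 4 for clone A2 and 5, 5 and 4 for clone D7. Over all genes the shares were 29.5%, 10.0%, 14.8%, 32.2%, 35.3% and 19.5% in that order. RAD21 itself had no RAD21 summit within 1 kb of an end.

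STAG1, one of the alternative accessory subunits, had the strongest RAD21 peak of the 10 loci in clone D7 in DMSO. Fold enrichment below is the authors' value for the summit over its local background, and it is not compared between lists. The peak spanned chromosome 3 from 136751254 to 136753476, with its summit 14 bp before the start site. Its fold enrichment was 56.5 with DMSO in clone A2 and 14.9 and 22.9 after 4 h and 24 h of dTAGV-1. The corresponding values of clone D7 were 71.1, 30.1 and 50.1. Within their own lists these placed it in the upper 6.84%, 43.2%, 25.7%, 2.75%, 16.4% and 8.08% of peaks by fold. The RAD21 summits lay between 20 bp before and 27 bp after the start site. CTCF had a fold enrichment of 147 there, STAG1 39.3, STAG2 6.27 and PDS5A 81.4. The STAG2 protein peak ranked at 76.9% from the top of its list, while the STAG1 protein peak ranked at 11.4%. A further site 6.3 kb upstream of STAG1 also held all 6 RAD21 lists, with a fold enrichment of 39.7 in clone A2 and 28.3 in clone D7 in DMSO.

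STAG2, the other accessory subunit, had a peak on chromosome X from 123960038 to 123960923 in clone D7 in DMSO, with its summit 57 bp before the start site. RAD21 fold enrichment was 36.8 with DMSO in clone A2 and 19.3 and 27.6 after 4 h and 24 h of dTAGV-1. The corresponding values of clone D7 were 61.0, 28.1 and 35.4. All 6 RAD21 summits lay between 69 and 57 bp before the start site. PDS5A had a fold enrichment of 106 at this site, in the upper 1.57% of its list. CTCF had 87.9 there, STAG1 protein 41.3 and STAG2 protein 23.4. A second PDS5A peak, with 4.55, lay 215 bp from another RefSeq start of STAG2. In clone A2 in DMSO, 2 weaker peaks lay inside the gene, both with a fold enrichment of 6.06. Neither was called in any other RAD21 list.

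PDS5B, a regulator that binds the ring, had a peak on chromosome 13 from 32586002 to 32587918 in clone D7 in DMSO. The summit lay 70 bp before the start site in all 4 dTAGV-1 lists, and also in the CTCF and STAG1 lists, and 63 and 71 bp before it in DMSO in clones A2 and D7. RAD21 fold enrichment was 45.1 with DMSO in clone A2 and 31.8 and 40.9 after 4 h and 24 h of dTAGV-1. The corresponding values of clone D7 were 59.3, 88.1 and 71.5. CTCF had a fold enrichment of 45.9 there, STAG1 62.9 and STAG2 20.1. PDS5A protein had 105, in the upper 1.62% of its list. It was the only PDS5A peak of the PDS5B locus. The 4 h list of clone D7 had another RAD21 peak 793 bp after the start, with a fold enrichment of 3.37 and without CTCF. A site inside the gene 64.4 kb after the start also held all 6 RAD21 lists, with a fold enrichment of 10.8 in clone A2 and 9.25 in clone D7 in DMSO.

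PDS5A, the paralogue, held its main site just inside the gene. The clone D7 DMSO peak spanned chromosome 4 from 39976114 to 39978277, and its summit lay 1312 bp after the start site, past the 1 kb limit. RAD21 fold enrichment at the site was 46.2 with DMSO in clone A2 and 11.9 and 17.0 after 4 h and 24 h of dTAGV-1. The corresponding values of clone D7 were 54.3, 27.0 and 22.1. In 3 of the lists after dTAGV-1, both of clone A2 and 24 h of clone D7, a second summit was called 244 to 251 bp after the start site. The DMSO peaks spanned both positions as 1 interval, and in every RAD21 list a peak covered the start site. These second summits are why PDS5A counts at a start site after dTAGV-1 and not in DMSO. No other RAD21 peak lay in the PDS5A window in any list. A STAG2 protein peak with a fold enrichment of 3.93 had its summit 80 bp before the start site.

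**Figure D2:**
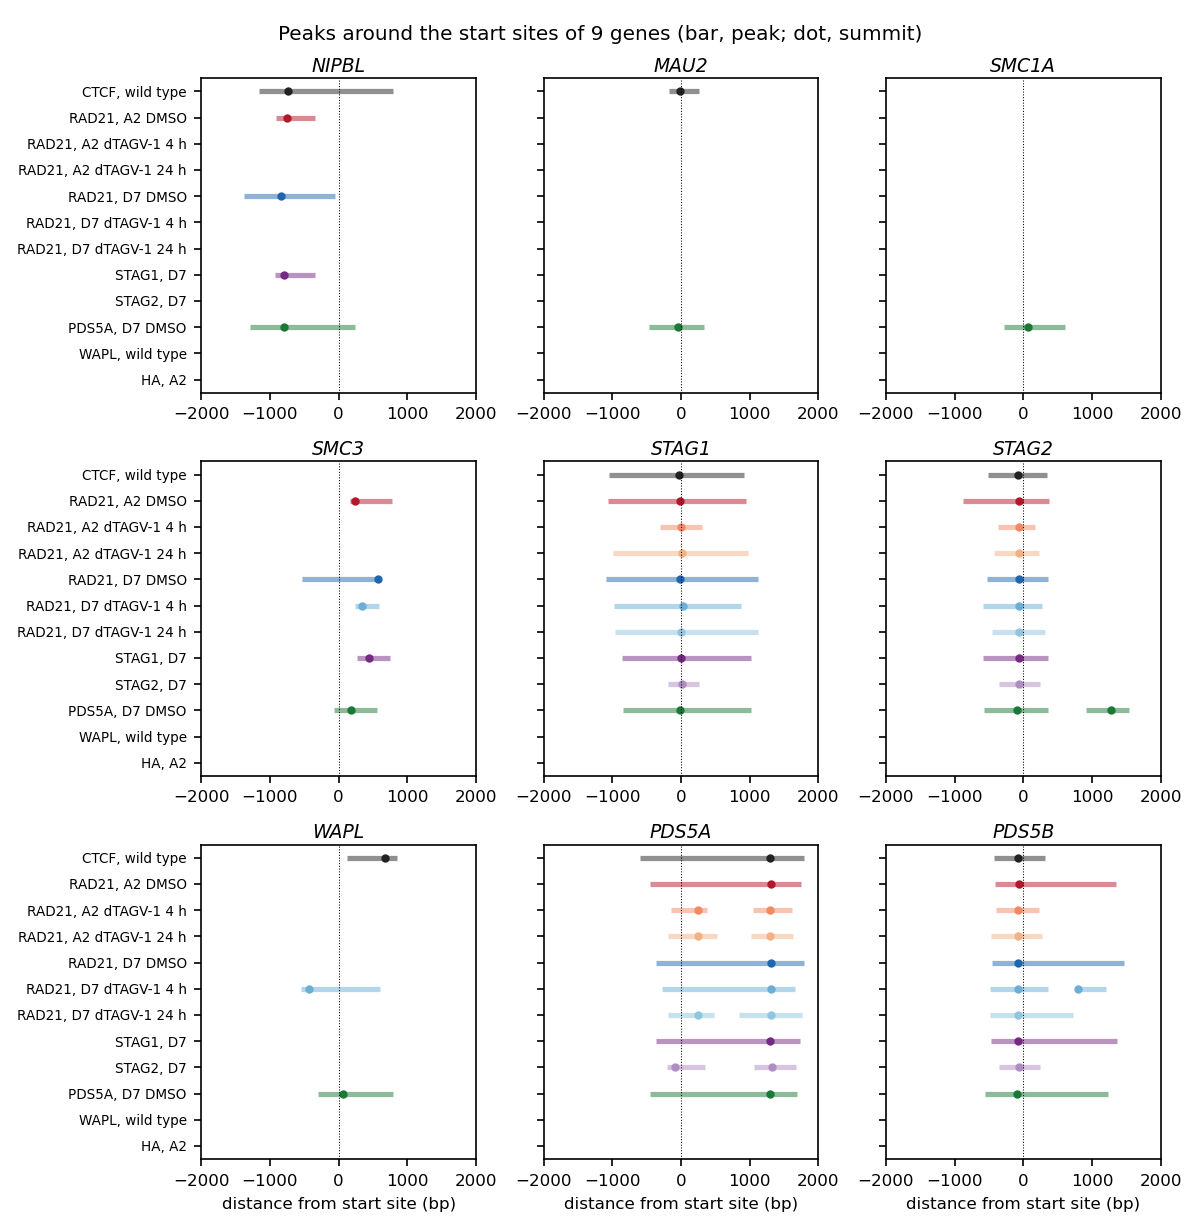
Peaks (bars) and summits (dots) of the 12 lists against distance from the start site in bp for the 9 members with a RefSeq start site. RAD21 summits of the 6 lists stack between 20 bp before and 27 bp after the start at STAG1, and between 69 and 57 bp before it at STAG2. NIPBL shows RAD21 summits with DMSO and none after dTAGV-1, while MAU2 and SMC1A show none in any of the 6 lists.

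NIPBL, the loader and the protein that dTAGV-1 removes, was the only member without a RAD21 peak in any of the 4 lists after dTAGV-1. Clone A2 had 4 NIPBL peaks in DMSO and clone D7 had 1, and both had 0 at each time. Of 17499 protein-coding genes with a RAD21 peak in the window in both DMSO lists, 0.503% had none in the 4 lists after dTAGV-1. These genes were not matched to NIPBL for the number or strength of their DMSO peaks. The peak common to both clones lay on chromosome 5 from 36875389 to 36876711 in clone D7, with its summit 834 bp before the start site. The fold enrichments of the clone A2 and clone D7 peaks were 5.51 and 8.47. CTCF with 32.5, STAG1 with 4.65 and PDS5A with 11.4 shared the site. A RAD21 peak at the start site in both DMSO lists and in no list after dTAGV-1 was found in 2.37% of genes with a start site.

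The other 3 NIPBL peaks of clone A2 lay inside the gene, 68.1, 129 and 167 kb after the start, with fold enrichments of 6.27, 9.41 and 5.15. All 3 overlapped CTCF. The 4 peaks of clone A2 ranked between 61.4% and 85.6% from the top of their list, and the clone D7 peak at 55.0%. All NIPBL peaks were thus weaker than the median peak of their lists, 13.2 in clone A2 and 9.78 in clone D7. The locus was not empty of CTCF, which had 6 peaks with fold enrichments from 7.64 to 54.1 in wild-type cells.

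The HA list, whose peak names read HA-NIPBL, held 230 peaks and placed 1 of them in NIPBL itself. It lay on chromosome 5 from 36953884 to 36954532, with its summit 77.5 kb after the start site and inside the gene, and had a fold enrichment of 9.20. No other list had a peak there. The HA library came from clone A2, whose NIPBL gene carries the inserted tag, and the series has no HA library of wild-type cells. The bearing of the edited gene on this peak was not tested. Only 3 of the 230 HA peaks, or 1.30%, overlapped no peak of the other 11 lists. HA had no peak at the other 9 loci.

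By its peak numbers in the 12 lists, NIPBL was most like SELENOH, ITPRIPL1 and GPBP1L1 among protein-coding genes outside its window. The distances were 1.25, 1.26 and 1.36, as Euclidean distances of the square roots of the counts. They were chosen on these counts, so that they too had 0 RAD21 peaks in the 4 lists after dTAGV-1 is no separate result. Their windows were shorter, 102060 to 160807 bp against 289645 bp for NIPBL. This likeness rests on counts of 6 or fewer in each list.

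MAU2, the partner of NIPBL in loading, had 4 RAD21 peaks in DMSO in clone A2, then 2 at each time, while clone D7 had 5, 4 and 3. At the start site CTCF had a fold enrichment of 5.94 and PDS5A 17.6, without RAD21 in any list. The peak inside the gene, 22.1 kb after the start, was on chromosome 19 from 19342591 to 19343211 in clone D7, with a fold enrichment of 10.3. It was the strongest clone D7 DMSO peak at the 10 loci without a peak at either time. In clone A2 its fold enrichment was 12.1, and it was lost there too. CTCF had a fold enrichment of 118 at that site. The strongest site of the locus lay 46.2 kb after the start and past the gene, on chromosome 19 from 19366604 to 19367425 in clone D7, and held all 6 RAD21 lists. Fold enrichment there was 50.8, 6.84 and 16.5 for DMSO, 4 h and 24 h of clone A2, and 30.2, 21.4 and 26.3 for clone D7.

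The genes of the core ring had no strong peak at their ends. RAD21, the kleisin, kept 4 peaks at 4 h in clone A2, as in DMSO, and had 3 at 24 h, while clone D7 had 4, 2 and 3. Its strongest site in clone D7 was on chromosome 8 from 116887255 to 116888067, outside the gene, and held all 6 lists. RAD21 fold enrichment there was 25.8, 19.5 and 39.5 for clone A2, and 31.8, 16.4 and 27.8 for clone D7, in the order DMSO, 4 h and 24 h. A peak inside the gene had a fold enrichment of 5.92 in clone A2 and 4.50 in clone D7 in DMSO. It was called at both times in clone A2 and at neither in clone D7.

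SMC1A, a ring ATPase, had 4, 2 and 3 RAD21 peaks for clone A2, and 3, 3 and 4 for clone D7. All of them lay outside the gene. The strongest in clone D7 lay 13.5 kb upstream of the start site on chromosome X from 53435814 to 53436517, and its site held all 6 lists. Fold enrichment was 21.6, 7.07 and 13.0 for clone A2, and 13.8, 15.9 and 9.39 for clone D7. At the SMC1A start site only PDS5A had a peak, with a fold enrichment of 6.63.

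SMC3, the other ring ATPase, was the locus with the most DMSO peaks over both clones, 5 in each. After dTAGV-1 clone A2 had 4 and 3 peaks there, and clone D7 had 9 and 3. Its strongest site lay 42.8 kb after the start and past the gene, on chromosome 10 from 110609608 to 110611046 in clone D7. Fold enrichment there was 69.4, 42.7 and 50.7 for clone A2, and 51.6, 40.7 and 45.1 for clone D7. The site was the strongest of the 10 loci in clone A2 among those in all 6 lists. Near the start site weak RAD21 peaks were called in both DMSO lists and at 4 h in clone D7, with fold enrichments of 3.54, 2.40 and 2.57. CTCF and STAG2 had no peak there, while STAG1 had 2.66 and PDS5A 4.73.

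WAPL, the release factor, had 1 RAD21 peak in each list except the 4 h list of clone D7, which had 3. The common site lay 122 kb after the start and past the gene, on chromosome 10 from 86399540 to 86400599 in clone D7. Fold enrichment was 54.2, 33.7 and 28.8 for clone A2, and 50.2, 82.1 and 44.3 for clone D7. Within 1 kb of the start site PDS5A had a fold enrichment of 3.22 and CTCF 2.58, and RAD21 had 4.84 in the 4 h list of clone D7 alone.

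PDS5A protein was read from 1 library of clone D7 in DMSO. Its summits lay within 1 kb of the start of 8 of 9 members, all but PDS5A, against 36.8% of all genes. At the PDS5A gene its peak, with a fold enrichment of 50.3, covered the start site, but the summit lay 1296 bp after it. At MAU2, SMC1A and WAPL, PDS5A protein was at the start without RAD21 in the clone D7 DMSO list. This was 3 of 9 members and 12% of genes. STAG1 protein had 5 of 9 against 29.0%, STAG2 protein 4 of 9 (STAG1, STAG2, PDS5A and PDS5B) against 5.71% and CTCF 6 of 9 against 35.3%. WAPL and HA had none, against 0.658% and 0.0885%. These are descriptions of 9 named genes.

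**Figure D3:**
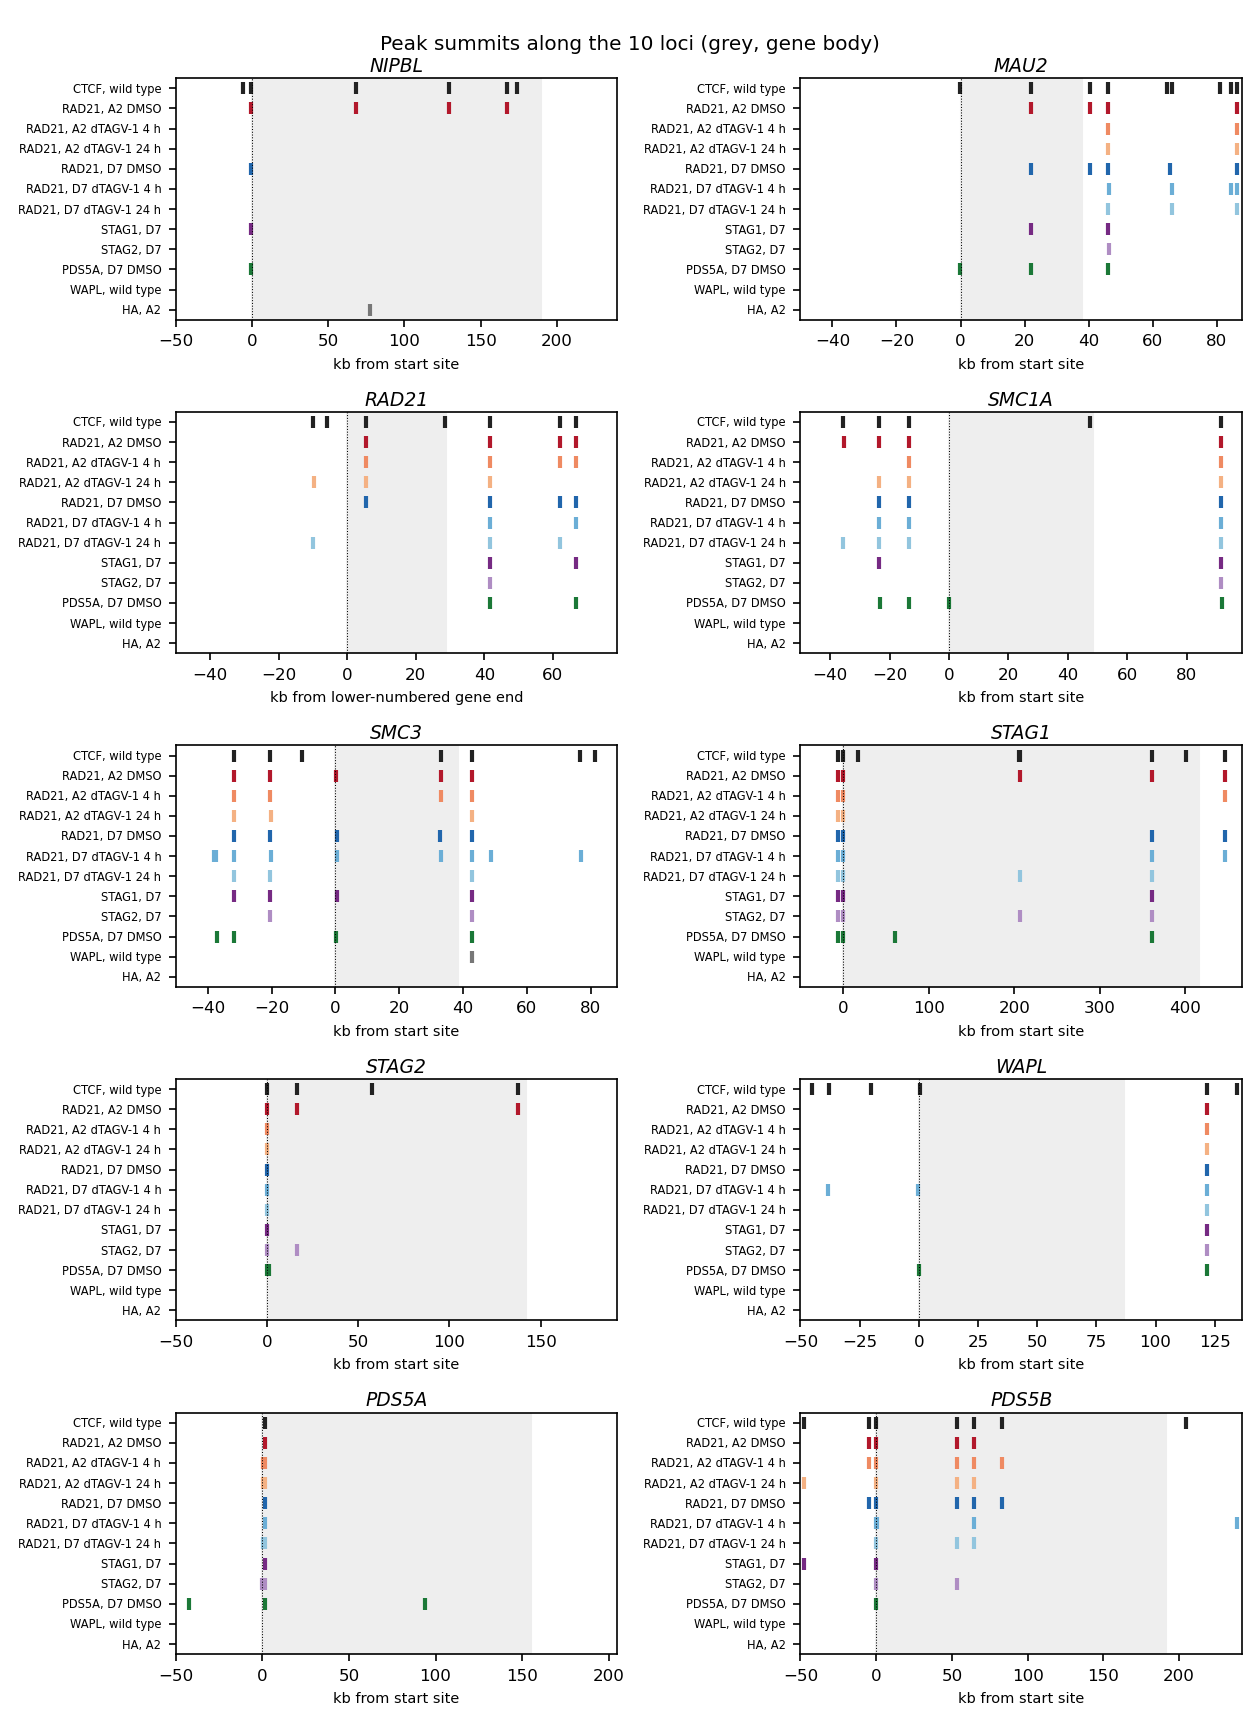
Peak summits (ticks) of the 12 lists along each locus in kb from the start site, with the gene body shaded; RAD21, without a start site in the table, is drawn from its lower-numbered end. Columns of ticks through all 6 RAD21 rows mark sites that stayed, and the NIPBL panel has no tick in the 4 rows after dTAGV-1.

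Loss and retention were then counted over all 10 loci. Clone A2 had 35 RAD21 peaks with DMSO and 24 and 21 with dTAGV-1 for 4 h and 24 h, ratios of 0.686 (exact interval 0.390 to 1.19) and 0.600 (0.332 to 1.06). Clone D7 had 30, 31 and 24, ratios of 1.03 (0.605 to 1.77) and 0.800 (0.448 to 1.42). The ratios of the whole lists were 0.649 and 0.720 for clone A2, and 1.04 and 0.802 for clone D7. All 4 intervals include 1, but they treat the lists as independent counts, although lists of a clone share sites. Matched by site, 13 DMSO peaks of clone A2 had no peak at 4 h and 1 peak at 4 h had none in DMSO, and 17 and 2 at 24 h. Clone D7 had 8 and 8 at 4 h, and 10 and 3 at 24 h.

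Of the DMSO peaks of clone A2, 22 of 35 were overlapped by a peak at 4 h, or 62.9% (46.3 to 76.8), and 18 at 24 h, or 51.4% (35.6 to 67.0). The whole list had 62.2% and 64.0%. In clone D7, 22 of 30 were retained at 4 h, or 73.3% (55.6 to 85.8), and 20 at 24 h, or 66.7% (48.8 to 80.8), against 80.0% and 68.8%. Each interval includes the share of the whole list. Between the 2 DMSO lists, 28 of 35 clone A2 peaks lay in clone D7, or 80.0% (64.1 to 90.0), and 28 of 30 clone D7 peaks in clone A2, or 93.3% (78.7 to 98.2). In clone A2, 12 peaks were absent at both times, 34.3% (20.8 to 50.8) against 26.8% of the list, and 6 of 30 in clone D7 (9.51 to 37.3%) against 15.3%.

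**Figure D4:**
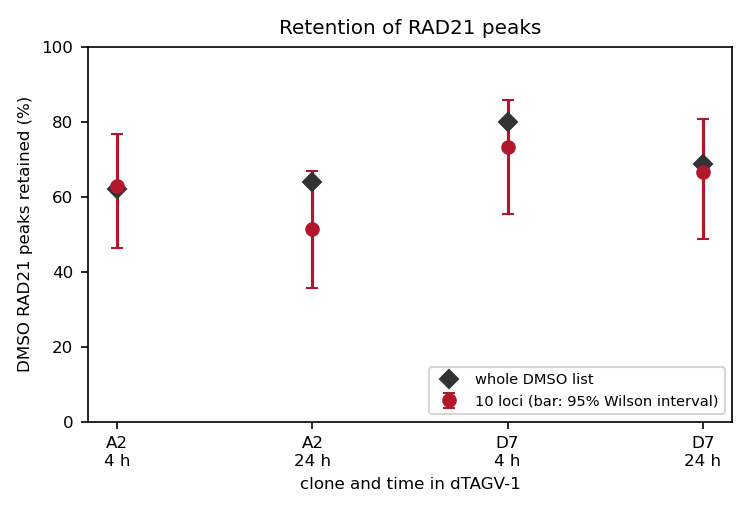
Share of DMSO RAD21 peaks overlapped by a peak after dTAGV-1 (percent) for each clone and time, at the 10 loci (circles, with 95% Wilson intervals) and in the whole DMSO list (diamonds). Every diamond lies inside the interval of the loci.

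Retained peaks had higher medians in the DMSO list than the others in both clones and at both times. In clone A2 at 4 h, DMSO peaks that were retained had a median fold enrichment of 20.7 in the DMSO list, against 6.27 for the others. At 24 h the medians were 31.3 and 7.57. The medians of clone D7 were 15.8 against 5.32 at the first time and 22.1 against 6.81 at the second. Split at the median of the whole DMSO list, 15 of 17 peaks of the upper 50% and 7 of 18 of the lower 50% were retained in clone A2 at 4 h. The whole list had 95.5% and 28.9%. At 24 h clone A2 kept 14 of 17 and 4 of 18, against 88.7% and 39.4%. Clone D7 kept 16 of 17 and 6 of 13 at 4 h, against 97.8% and 62.2%. In clone D7 at 24 h the numbers were 14 of 17 and 6 of 13, against 94.1% and 43.4%. That 94.1% lies above the interval of the loci, 59.0 to 93.8%. The other whole-list shares lie inside the intervals of the loci. The strongest clone A2 peak without a peak at either time lay inside STAG1, on chromosome 3 from 136391363 to 136392142, 361 kb after the start, with a fold enrichment of 15.6. The same site was called in clone D7 in all 3 lists.

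**Figure D5:**
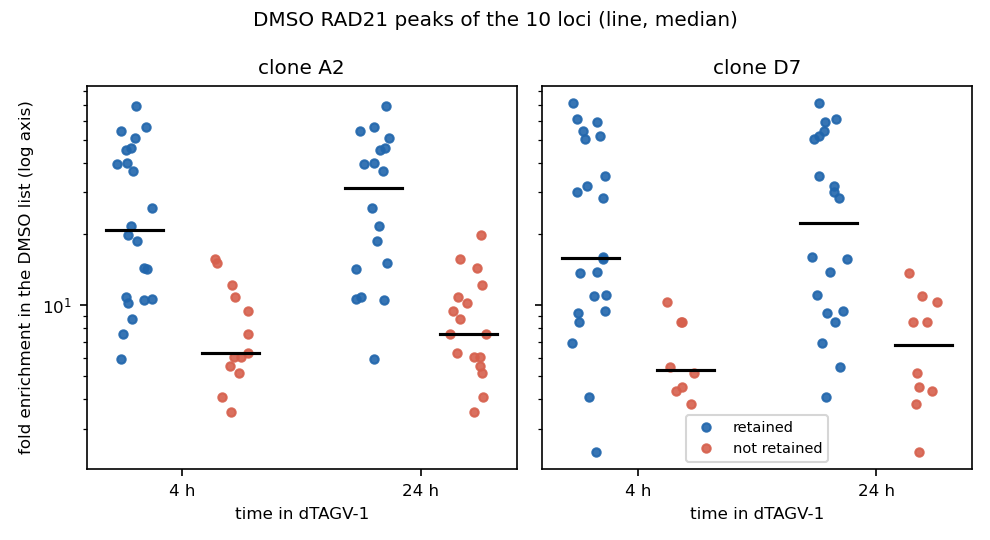
Fold enrichment in the DMSO list (log axis) of each DMSO RAD21 peak at the 10 loci, for clones A2 and D7, split by whether a peak was called there at 4 h and 24 h of dTAGV-1 (lines, medians). Retained peaks have medians from 15.8 to 31.3 and the others from 5.32 to 7.57.

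Retention was also counted inside the genes and in the flanks. In clone A2 at 4 h, 5 of 14 body peaks were retained, or 35.7% (16.3 to 61.2), and 17 of 21 flank peaks, or 81.0% (60.0 to 92.3). At 24 h the shares were 28.6% (11.7 to 54.6) and 66.7% (45.4 to 82.8). Clone D7 had 55.6% (26.7 to 81.1) and 81.0% at 4 h, and 44.4% (18.9 to 73.3) and 76.2% (54.9 to 89.4) at 24 h. The intervals overlap at each time in both clones, in clone A2 at 4 h only from 60.0 to 61.2. Overlap of intervals does not compare the shares, and their difference was not tested. In the whole lists, peaks inside protein-coding genes and elsewhere had 55.4% and 68.9% in clone A2 at 4 h and 57.8% and 70.2% at 24 h. Clone D7 had 76.4% and 83.7%, then 64.5% and 72.9%. These classes differ from the flanks of the members, which also hold peaks inside other coding genes, such as GATAD2A and PCCB. The share of 57.8% lies above the interval of the members' bodies at 24 h in clone A2, and the other 3 body shares lie inside theirs. The body peaks of the members were also the weaker ones, with a median DMSO fold enrichment of 9.98 against 19.9 in clone A2 and 9.25 against 13.8 in clone D7. The part of peak strength in this difference was not tested.

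Seen as sites, 37 of the 47 sites with RAD21 held it in at least 1 DMSO list and 28 in both. All 6 lists were present at 15 sites, and the 5 lists without the 4 h library of clone D7 at 16. The 15 sites were spread over 9 members, all but NIPBL. All 15 held CTCF, 12 held STAG1, 11 held STAG2 and 12 held PDS5A. Of the clone D7 DMSO peaks at the loci, 15 of 30 lay in all 6 lists, or 50.0% (33.2 to 66.8), against 50.4% of the whole list. In the whole list 99.4% of such peaks overlapped CTCF, 88.7% STAG1, 79.3% STAG2 and 72.2% PDS5A.

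Loss from all 4 lists after dTAGV-1 was found at 8 of the 37 sites with RAD21 in DMSO. In 5 of them RAD21 had been called in clone A2 alone, 3 inside NIPBL and 2 inside STAG2. The other 3 had been called in both clones, at the NIPBL start and 22.1 and 40.4 kb after the MAU2 start, the last of them past the end of MAU2. No whole-list share stands beside these counts, so they only describe the loci.

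Sites without RAD21 in either DMSO list but with it after dTAGV-1 numbered 10. Of these, 8 were called in the 4 h list of clone D7 alone: 4 at SMC3, 2 at WAPL, 1 at MAU2 and 1 at PDS5B. The other 2 were called at 24 h, at RAD21 in both clones and at PDS5B in clone A2. Peaks absent from the DMSO list of the clone made up 8 of 31 peaks in clone D7 at 4 h, or 25.8% (13.7 to 43.2), and 22.7% of that whole list. They made up 1 of 24 in clone A2 at 4 h, 2 of 21 at 24 h and 3 of 24 in clone D7 at 24 h. The whole lists had 3.64%, 10.8% and 13.5%. CTCF overlap at the loci was 80.6% (63.7 to 90.8) in the 4 h list of clone D7, and 100% of 24, 21 and 24 peaks in the others after dTAGV-1. The whole lists had 78.2%, and 97.9%, 90.7% and 90.7% for the others. The 4 h list of clone D7 had the highest background of the 6 RAD21 libraries, 4.05 reads as the lowest local background, against 3.00 in its DMSO list and 3.07 at 24 h, and 1.87, 3.16 and 2.83 in clone A2. The part of depth in these additional peaks was not tested.

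Other genes of the pathway were read in the same way. Of 10 partners of cohesin, among them the acetyltransferases ESCO1 and ESCO2 and the separase ESPL1, all 10 had a RAD21 window peak in both DMSO lists. At 4 h in clone A2, 9 of the 10 partners did, as did 9 of the 10 members and 81.1% of all genes. The partners with no RAD21 window peak in at least 1 list were AURKB and PLK1, both mitotic kinases, which is a choice made after their values were seen. Of all genes, 76.4% had a window peak in all 6 lists. For DMSO, 4 h and 24 h in turn, AURKB had 6, 0 and 1 peaks for clone A2, and 5, 3 and 1 for clone D7. PLK1 had 3, 1 and 0, and 4, 3 and 0. Of the 8 partners with a start site, 3 had RAD21 there in each DMSO list, against 29.5% and 32.9% of genes. CTCF as a gene was the only partner with a RAD21 peak at its start site in all 6 lists, against 7.17% of genes. It had 7, 5 and 6 window peaks for clone A2, and 7, 8 and 7 for clone D7.

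The 4 meiotic cohesin genes SMC1B, REC8, RAD21L1 and STAG3 all had a RAD21 window peak in both DMSO lists, against 90.0% and 88.9% of genes. None had a PDS5A summit at the start site, against 36.8% of genes. REC8 had 3, 0 and 2 peaks for clone A2, and 3, 3 and 0 for clone D7. Of the 10 genes of condensin and SMC5/6, which encode the related SMC complexes, all 10 had a RAD21 window peak in DMSO in both clones. The shares over all genes were again 90.0% and 88.9%. At 4 h in clone A2, 9 had such a peak, against 81.1% of genes. NCAPG had 2, 0 and 1 for clone A2, and 1, 0 and 1 for clone D7. SMC4 had 1, 1 and 0, and 1, 1 and 2. RAD21 lay at the start of 3 of 9 in clone A2 and 2 of 9 in clone D7 in DMSO, against 29.5% and 32.9% of genes. PDS5A lay at 7 of 9, against 8 of 9 members and 36.8% of genes. None of the 9 with a start site had RAD21 there in all 6 lists, against 7.17% of genes. SMC2 came closest with 5 lists.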

How the data were processed

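Peak lists of 12 ChIP-seq libraries were used, and the 10 inputs were not analysed on their own. Per the submitters' processing notes, BWA, Picard, SAMtools, bedtools, deepTools and MACS2 were used and hg38 and mm10 are named, without roles or settings. In the deposited lists the authors give a fold enrichment (ratio), a −log10 p, a −log10 q and a score, which was 10 times the −log10 q cut to a whole number except for 5 peaks of 1 list. Peak names carry a q-value threshold of 0.001 for CTCF and 0.01 elsewhere, and name 1 immunoprecipitation each, so peaks were called per library. CTCF libraries were size-selected and HA chromatin had a second crosslinker, per the labels' protocols. No spike-in scaling entered these counts of peaks, which do not measure how much cohesin a called peak holds.

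Read totals are not part of the lists. As depth, the lowest local background of the 400 weakest peaks of a list was solved from fold and −log10 p under a Poisson model; it ran from 1.77 for STAG1 to 13.4 for CTCF and was not recovered for HA. Overlap meant at least 1 bp. Coordinates count from 1. Start sites came from the RefSeq promoter table, which has 9 of the 10 members. Python 3.11.15, pandas 2.3.3 and SciPy 1.17.1 were used, and overlaps were tested on simulated intervals. The members and lists were chosen with earlier results of these data known. A result for 1 gene of the partner list is not reported here. Named were all members, the strongest clone D7 DMSO peak of each locus, all peaks within 1 kb of a start site, and in each clone the strongest peak lost at both times and the strongest in all 6 RAD21 lists. Alternatives were the gene body alone, flanks of 100 kb, a −log10 q of at least 10, summits within 200 bp, lists of equal length, leaving out SMC3, and 2.5 kb from a gene end.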

Additional observations from a re-analysis of the deposited data

Results flagged for a closer look

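At 4 h of dTAGV-1 the number of RAD21 peaks at the 10 loci was below that of DMSO in clone A2 and above it in clone D7. Relative to DMSO, clone A2 had a ratio of 0.686 and clone D7 of 1.03, and with 1 library per group this difference was not tested. The excess in clone D7 amounts to 1 peak, 31 against 30, and its interval of 0.605 to 1.77 includes the value of clone A2. The opposite directions were not kept with other settings: for clones A2 and D7 the ratios were 0.571 and 0.778 with gene bodies alone, 0.786 and 0.833 with a −log10 q of at least 10, 0.667 and 0.88 without SMC3, and 1 and 0.739 with lists of equal length. They were kept with flanks of 100 kb, 0.714 and 1.18. The 4 h list of clone D7 also had the highest lowest-background value of the 6 RAD21 lists, 4.05 reads, and the part of depth was not tested.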

How the results depend on the processing

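Of 130 alternative values at the 10 loci, 107 moved by less than their interval or by less than 1.5 times and 23 moved further. The direction of the clone D7 ratio at 4 h, 1.03 with an interval that includes 1, was not kept: it was 0.778 with gene bodies alone, 0.833 with a −log10 q of at least 10, 0.739 with lists of equal length and 0.88 without SMC3, and 1.18 with flanks of 100 kb. No other ratio crossed 1, though that of clone A2 at 4 h was 1 with lists of equal length. With gene bodies alone, retention was 35.7% and 28.6% in clone A2 at 4 h and 24 h and 44.4% in clone D7 at 24 h. The number of RAD21 peaks per 100 kb was then 0.599 and 0.450 in clone A2 at 4 h and 24 h, and 0.674, 0.524 and 0.524 in clone D7 in DMSO, at 4 h and at 24 h. With the strongest 25763 peaks of each RAD21 list, retention in clone A2 at 4 h was 83.3% and clone D7 at 4 h had 0.728 peaks per 100 kb. Members with a peak at a gene end then numbered 3 in clone A2 in DMSO and 3 in clone D7 at 4 h. With a −log10 q of at least 10 that number was 3 in clone A2 in DMSO, and clone D7 at 4 h had 0.857 peaks per 100 kb. CTCF overlap in DMSO was 100% in both clones with lists of equal length, with the stricter q and without the SMC3 locus. At 4 h in clone D7 it was 100%, 95% and 90.9% under these settings. Gene bodies, stricter q and equal lists hold fewer peaks by construction, and other causes were not tested. Leaving out the 4 h library of clone D7 was chosen after seeing the data. No paired analysis was possible because each group, a clone at 1 treatment, held 1 library and the groups share no replicate numbers. Without read counts, a site without a peak cannot be told from one just below the calling threshold.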
